A study of Homo sapiens with 6 samples.

Results

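The genes described here are 45 genes of the hypoxia response: the subunits of the hypoxia-inducible factors (HIFs), the enzymes that sense oxygen for them, and HIF targets outside the core of glycolysis. They were chosen by name, as the rows of the count table whose symbol was on this list. All 45 were among the 40173 genes of the table, and 44 of them were among the 15250 genes with enough counts to be tested. BHLHE41 had between 2 and 6 counts in a library and was not tested.

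HIFs are transcription factors made of an oxygen-labile alpha subunit and the stable partner ARNT. When oxygen is plentiful, prolyl hydroxylases of the EGLN family mark the alpha subunits for the ubiquitin ligase that contains VHL, and when oxygen is scarce the alpha subunits persist and switch on genes for pH control, vessel growth, collagen modification, mitophagy and a lower oxygen use. In lung adenocarcinoma, as in other solid tumors, CA9 and SLC2A1 are widely used as tissue markers of hypoxia.

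RNA-Seq was performed on total RNA of cells labelled A549, a human lung adenocarcinoma line, harvested 24 h after transfection with an siRNA targeting the long noncoding RNA FAM83H-AS1 (silenced, 3 libraries) or with a negative control (control, 3 libraries). The sources do not say which of the siRNAs listed by the study was used, that the libraries came from separate cultures, or that oxygen was varied. The p-values therefore measure the spread between these libraries, which may be technical, and an effect of the siRNA other than on FAM83H-AS1 cannot be told apart from silencing. In bulk RNA, a change in the number of cells that express a gene and a change in the RNA per cell cannot be told apart.

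Library totals ranged from 9738291 to 17742643 counts. The values below are counts per 1000000 counts of the normalized library size (CPM), and 3 values in a row are always those of replicates 1, 2 and 3 as numbered in the deposited table. The study's supplementary table numbers the silenced replicates differently. FAM83H-AS1 measured 14.5, 15.98 and 17.3 CPM in the control libraries and 4.59, 4.44 and 5.57 CPM in the silenced libraries, so the silenced libraries held 30.6% of the control level on average (log2 fold change -1.70, standard error 0.15, edgeR adjusted p = 7.99e-05), and the level in silenced replicate 2 was the lowest of the 3. Of 10 epithelial markers fixed for the A549 label, 9 had more than 3 counts in each library, the level taken as detected. KRT8, KRT18 and KRT7 made up most of their summed level, while AKR1B10, CDH1 and KRT19 stayed at or under 2.44 CPM in each library and ALDH1A1 had 0 to 2 counts, so these 4 markers were absent or nearly so in cells that carry the A549 label. The summed level of the list was 4521 to 4871 CPM in the control and 3664 to 3702 CPM in the silenced libraries. KRT7 (log2 fold change -0.57, edgeR adjusted p = 0.00116) and KRT18 (log2 fold change -0.43, edgeR adjusted p = 0.00266) fell and AKR1B10 rose (log2 fold change 1.31, edgeR adjusted p = 0.0135), while CDH1 was higher in each silenced library without passing the test (log2 fold change 0.82, edgeR adjusted p = 0.112). Of 11 markers of blood, endothelial and fibroblast cells, 4 had more than 3 counts in each library, and the summed level of all 11 was 32.5 to 37.6 CPM in the control and 34.4 to 44.2 CPM in the silenced libraries, while PTPRC, CD3E and PECAM1 had 0 to 2 counts. The part of these shifts in the results below was not tested.

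Control replicate 3, the largest library, stood apart from the others. RNA5-8SP6, a pseudogene of ribosomal RNA, took 3.22% of its counts, against 0.241% to 0.448% elsewhere, and its chi-square per degree of freedom over genes was 22.7 to 40 against each other library. Without it, 22 members rose and 1 fell, as against 22 and 0 with all libraries, with a median log2 fold change of 0.47.

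Silenced replicate 2 in turn stood apart from the other silenced libraries for the hypoxia genes, and values without it are given for some of the members in which it was low. Where it was the lowest silenced library, leaving it out raises the fold change by construction. Such values are a description and not a further test. Silenced replicate 2 was the lowest of the 3 silenced libraries for 39 of the 44 tested members (88.6%), against 38.1% of all tested genes. In the further lists described at the end, which hold none of the members, it was the lowest for 15 of 18 glycolytic HIF targets (83.3%), 26 of 45 other HIF targets (57.8%) and 8 of 18 genes of the VHL ligase, hydroxylases and HIF cofactors (44.4%).

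A HIF dimer binds DNA at a short core word, ACGTG or GCGTG, which reads CACGT or CACGC from the other strand. RefSeq promoter windows of 300 bases on GRCh38.p14, from 250 bases before the start to 50 bases after it, were matched by symbol for 36 of the 45 members. The 6 stretches below belong to the members that rose most among those with such a word. They are shown to place the word in the promoters of these genes, and a link between the word and the rise was not tested. Each is written 5′ to 3′ on the strand of its gene, and each core word is in capitals.
CA9: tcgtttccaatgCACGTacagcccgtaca
PPFIA4: tgggggcgggagGCGTGgcctcggtcgcg
LOX: cgatccctccccCACGCgcctgcagtggc
CA12: gcggatctcaccCACGCctgccagcagct
PDK1: cgcCACGTccctCACGTaccactcggcag
ADM: gagcaggagcgcGCGTGgctgaggaaaga

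The stretch of CA9 lies at chr9:35673898-35673926, plus strand, and its word begins 18 bases before the annotated start. That of PPFIA4 (chr1:203026395-203026423, plus strand) has its word 84 bases before the start, and that of LOX (chr5:122077221-122077249, minus strand) 14 bases before one of the 3 starts in the table. For CA12 (chr15:63382064-63382092, minus strand) the distance was 234 bases. PDK1 (chr2:172556070-172556098, plus strand) holds 2 words in the stretch, the nearer of them 8 bases before the start, and ADM (chr11:10304960-10304988, plus strand) holds one 101 bases before it. All of these words were searched on both strands, and a match is only a match of letters.

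ACGTG or GCGTG was present in the promoters of 29 of the 36 members, or 80.6% (Wilson 95% interval 65.0 to 90.2), against 70.5% of the 9513 tested genes with a promoter and 52.4% of all 27305 genes with one. The narrower word ACGTG was present for 58.3% of the members against 32.6% of the tested genes and 24.9% of all genes, and CACGTG, which contains ACGTG and is also the E-box of other factors, for 30.6% against 12.7% of the tested genes. The members' promoters were also richer in G and C, with a median of 69.2% against 65.0% for the tested genes. Among the members, ACGTG or GCGTG was present for 14 of the 17 that rose (82.4%, interval 59.0 to 93.8) and for 15 of the 19 others (78.9%, interval 56.7 to 91.5), with overlapping intervals. The narrower words were present for smaller shares of the members that rose than of the others, 52.9% against 63.2% for ACGTG and 23.5% against 36.8% for CACGTG, again with overlapping intervals. The intervals cover counting error only.

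After FAM83H-AS1 silencing, 22 of the 44 tested members (50%) rose, with an adjusted p under 0.05 by edgeR's quasi-likelihood test, and 0 fell. Among all tested genes 8.75% rose and 8.27% fell. At an unadjusted p under 0.05 by the same test, 33 of the 44 members were higher and 1, PFKFB3, was lower. Of all 15250 tested genes, 2489 were higher and 2405 lower at that threshold. With DESeq2 PFKFB3 passed the test. The median log2 fold change of the members was 0.46, against -0.00067 for all tested genes. A positive value was found for 38 of the 44 (86.4%), against 49.9% of all tested genes. With a fold change over 2 as well, 4 members were called higher (STC1, CA9, PPFIA4 and SPAG4) and 0 lower, or 9.09% of the members against a background of 1.14% higher and 0.997% lower. The other 18 rose by between 1.25-fold and 1.94-fold.

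**Figure D1:**
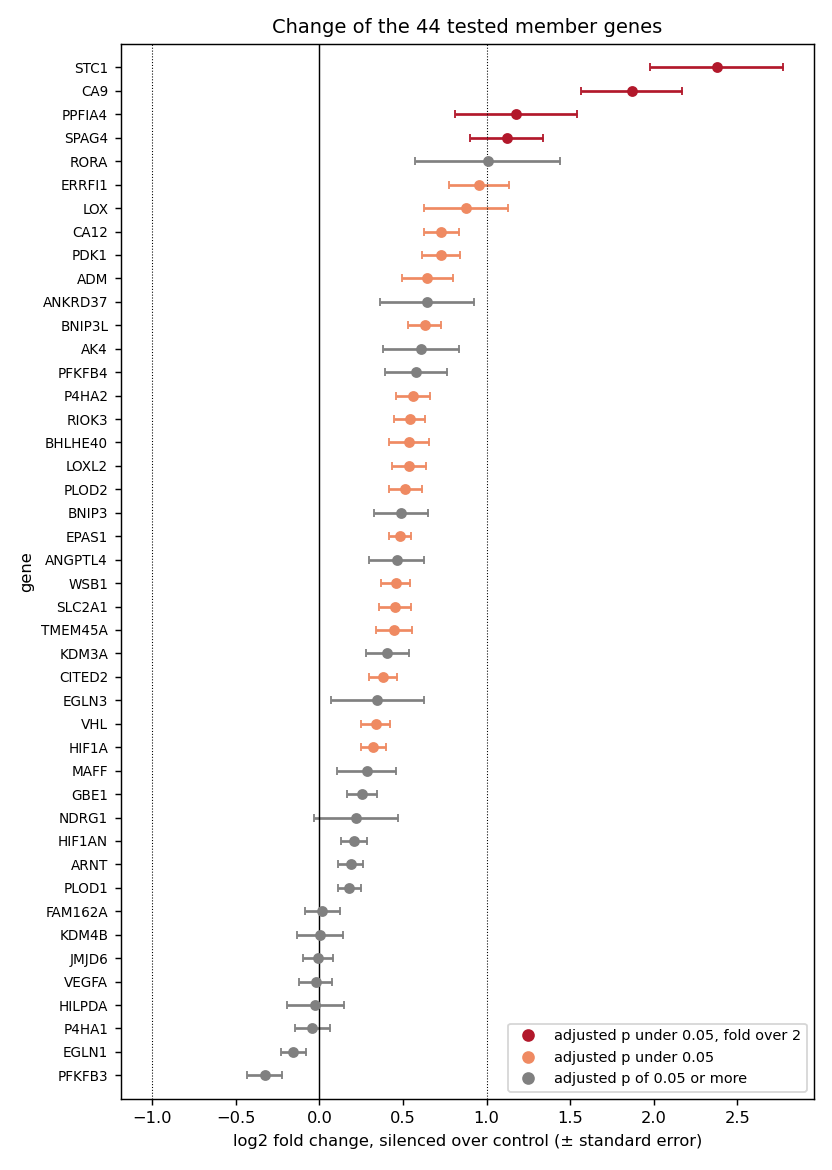
Log2 fold change, silenced over control, of the 44 tested hypoxia and HIF genes (horizontal axis, points with standard errors; dotted lines mark a fold change of 2). STC1 (2.38) and CA9 (1.87) lie farthest to the right, and EGLN1 and PFKFB3 farthest to the left, both grey because their adjusted p was 0.05 or more.

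In 25 members (56.8%) every silenced library lay above every control library, against 19.1% of all tested genes, and in 2 (EGLN1 and PFKFB3) every silenced library lay below, against 17.5%. In another 11 members (25.0%) silenced replicates 1 and 3 lay above every control library but silenced replicate 2 did not, an order found in 4.54% of all tested genes. The corresponding order with replicate 3 as the one left behind was found in 0 members and 4.90% of genes, and with replicate 1 in 0 members and 3.55% of genes. The remaining 6 members (KDM4B, JMJD6, VEGFA, P4HA1, FAM162A and HILPDA) followed none of these orders. In all 6, silenced replicate 2 lay below every control library, as it also did in 3 of the 11 (EGLN3, MAFF and NDRG1). The share of all tested genes for which it did so was not counted.

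**Figure D2:**
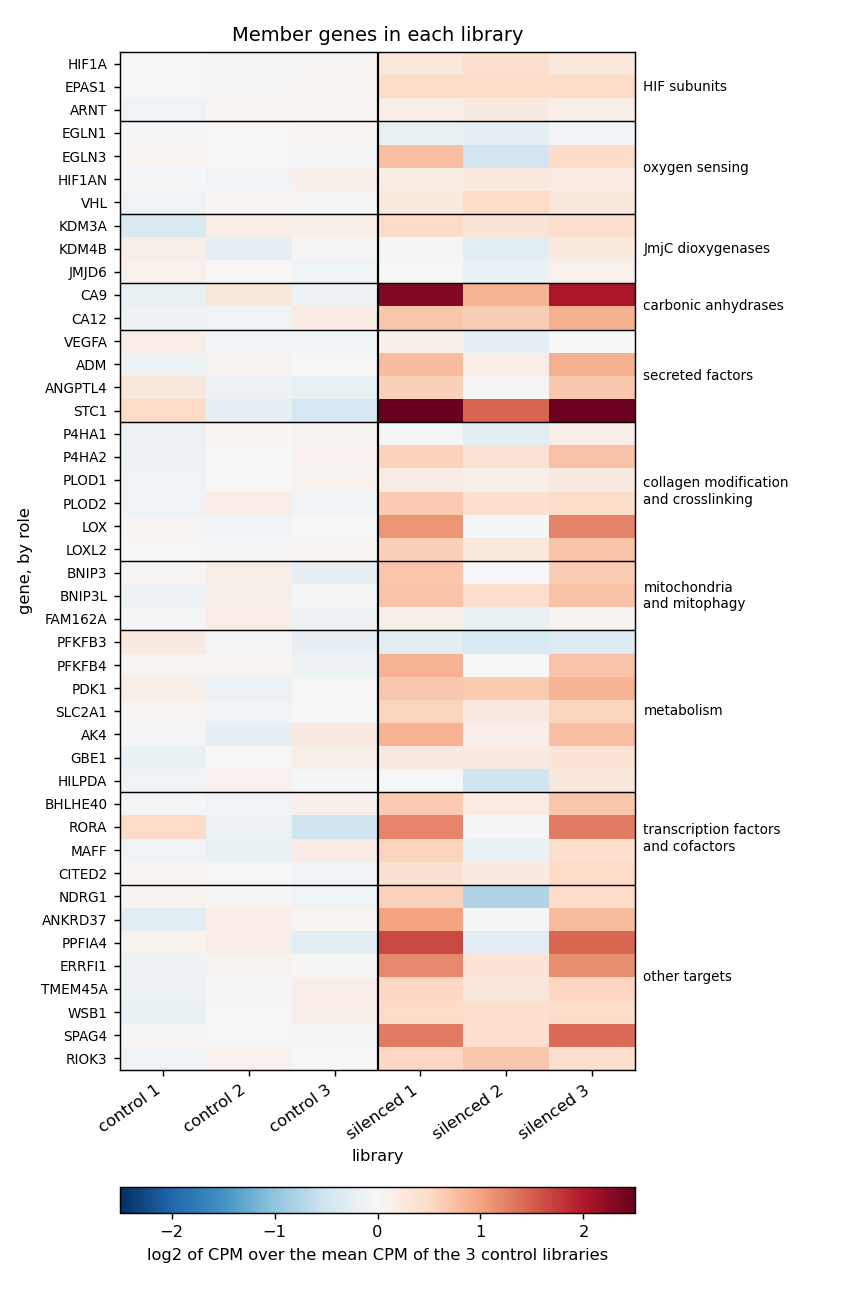
Log2 of CPM over the mean of the 3 control libraries for each tested member (rows, grouped by role) in each of the 6 libraries (columns); red is higher and blue lower than the control mean. Silenced replicates 1 and 3 are red for most genes, with medians of 0.56 and 0.49. Silenced replicate 2 is paler, with a median of 0.21. It is above the control mean in 28 of the 44 members and blue in the others, among them NDRG1, HILPDA and EGLN3.

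Of the 3 HIF subunits, 2 rose, both by less than 1.5-fold. EPAS1, the alpha subunit of HIF-2, measured 406, 392 and 427 CPM in the control libraries and 576, 563 and 569.6 CPM in the silenced libraries. The silenced libraries differed among themselves by far less than the gap between the groups, and EPAS1 was 1.39-fold higher (log2 fold change 0.48, standard error 0.065, edgeR adjusted p = 0.00106). HIF1A, the alpha subunit of HIF-1, measured 86.9, 84.7 and 89.3 CPM in the control libraries and 105, 118 and 104 CPM in the silenced libraries, again without overlap, and here silenced replicate 2 was the highest (log2 fold change 0.32, standard error 0.077, edgeR adjusted p = 0.0169). HIF1A passed the test narrowly, with an adjusted p of 0.0596 without control replicate 2 and 0.0520 without silenced replicate 1 by edgeR. ARNT, the partner of both, measured 55.5, 61.6 and 60.3 CPM in the control libraries and 66.4, 69.5 and 66.2 CPM in the silenced libraries, and although the groups did not overlap it did not pass the test (log2 fold change 0.19, standard error 0.075, edgeR adjusted p = 0.113). Per kilobase of annotated exon, the control level was 55.9 CPM for EPAS1, 16.9 CPM for HIF1A and 9.08 CPM for ARNT, so EPAS1 was the most abundant of the subunits on that scale. RNA levels do not give the amount of the HIF alpha proteins, which is set mainly by their breakdown.

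Among the oxygen sensors, VHL, the part of the ubiquitin ligase that recognizes hydroxylated HIF, rose from 47.8 ± 2.38 CPM in the control to 60.4 ± 5.81 CPM in the silenced libraries (SD, n = 3). By library it measured 45.03, 49.2 and 49.1 CPM in the control libraries and 56.2, 67.0 and 57.9 CPM in the silenced libraries, with silenced replicate 2 the highest (log2 fold change 0.34, standard error 0.088, edgeR adjusted p = 0.0248). VHL no longer passed when any of 3 libraries was left out, with an adjusted p of 0.0736 without control replicate 1, 0.0535 without control replicate 2 and 0.0711 without silenced replicate 2 by edgeR. EGLN1, the main HIF prolyl hydroxylase, measured 81.2, 84.2 and 87.1 CPM in the control libraries and 74.1, 71.9 and 80.7 CPM in the silenced libraries, all silenced values lying below the control values (log2 fold change -0.16, standard error 0.077, edgeR adjusted p = 0.185). EGLN3, a prolyl hydroxylase that is itself induced by HIF, measured 4.22, 4.06 and 4.02 CPM in the control libraries and 6.93, 2.96 and 5.72 CPM in the silenced libraries. Its silenced replicates 1 and 3 lay above and its silenced replicate 2 below every control library, and the average difference did not pass the test (log2 fold change 0.35, standard error 0.28, edgeR adjusted p = 0.422), nor did it without silenced replicate 2 (log2 fold change 0.62, standard error 0.21, edgeR adjusted p = 0.0768). HIF1AN, the asparaginyl hydroxylase that blocks the contact of HIF with its coactivators, measured 70.6, 68.6 and 79.6 CPM in the control libraries and 82.4, 86.6 and 84.1 CPM in the silenced libraries, without overlap and without passing the test (log2 fold change 0.21, standard error 0.080, edgeR adjusted p = 0.101).

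The 3 JmjC dioxygenases, which like the EGLN enzymes need oxygen, did not pass the test with all libraries. KDM3A, a histone demethylase and HIF target, ranged from 27.4 to 40.2 CPM in the control libraries and 44.6 to 50.7 CPM in the silenced libraries and was closest to the threshold (log2 fold change 0.41, standard error 0.13, edgeR adjusted p = 0.0520). It passed in 7 of 13 alternatives, with an adjusted p of 0.0266 with DESeq2 and 0.0373 by edgeR with the replicate block. KDM4B, another histone demethylase, and JMJD6 had log2 fold changes of 0.0037 and -0.0078, and their groups overlapped.

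Both carbonic anhydrases, membrane enzymes that hydrate CO2 outside the cell and so shape its pH, rose. CA9 measured 8.12, 11.2 and 8.34 CPM in the control libraries and 45.9, 16.7 and 38.2 CPM in the silenced libraries. It was higher in each silenced library than in any control library, but silenced replicate 2 reached only 0.407 of the level of the others, taken as a geometric mean. On average CA9 was 3.65-fold higher (log2 fold change 1.87, standard error 0.30, edgeR adjusted p = 0.00262), and without silenced replicate 2 the difference was larger (log2 fold change 2.19, standard error 0.14, edgeR adjusted p = 3.13e-05). CA12 measured 47.5, 48.7 and 59.6 CPM in the control libraries and 84.1, 79.2 and 95.6 CPM in the silenced libraries, and its silenced libraries were close to each other (log2 fold change 0.73, standard error 0.11, edgeR adjusted p = 0.00153).

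Of the secreted factors, STC1, a glycoprotein hormone, showed the largest change of all members, from a low level. It had 11, 8 and 10 counts in the control and 57, 24 and 59 counts in the silenced libraries, or 1.13, 0.691 and 0.591 CPM in the control libraries and 5.57, 2.22 and 4.39 CPM in the silenced libraries. The groups did not overlap, and STC1 was 5.19-fold higher (log2 fold change 2.38, standard error 0.40, edgeR adjusted p = 0.00317). Without silenced replicate 2 the values were log2 fold change 2.66, standard error 0.33, edgeR adjusted p = 0.000938. ADM, the vasodilator peptide adrenomedullin, measured 62.6, 73.2 and 68.7 CPM in the control libraries and 117, 76.6 and 126 CPM in the silenced libraries. Silenced replicate 2 was only just above the highest control library, and ADM rose on average (log2 fold change 0.64, standard error 0.15, edgeR adjusted p = 0.0165), with an adjusted p of 0.0554 without control replicate 1, 0.0710 without silenced replicate 1 and 0.0542 without silenced replicate 3 by edgeR. It passed the test without silenced replicate 2 (log2 fold change 0.83, standard error 0.089, edgeR adjusted p = 0.000368). ANGPTL4, an inhibitor of lipoprotein lipase, ranged from 78.8 to 109 CPM in the control libraries and 91.1 to 143 CPM in the silenced libraries and did not pass the test (log2 fold change 0.46, edgeR adjusted p = 0.0759). VEGFA, the best known angiogenic HIF target, ranged from 106 to 126 CPM in the control libraries and 97.7 to 123 CPM in the silenced libraries, with overlapping groups and a log2 fold change of -0.023 (standard error 0.10, edgeR adjusted p = 0.904).

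**Figure D3:**
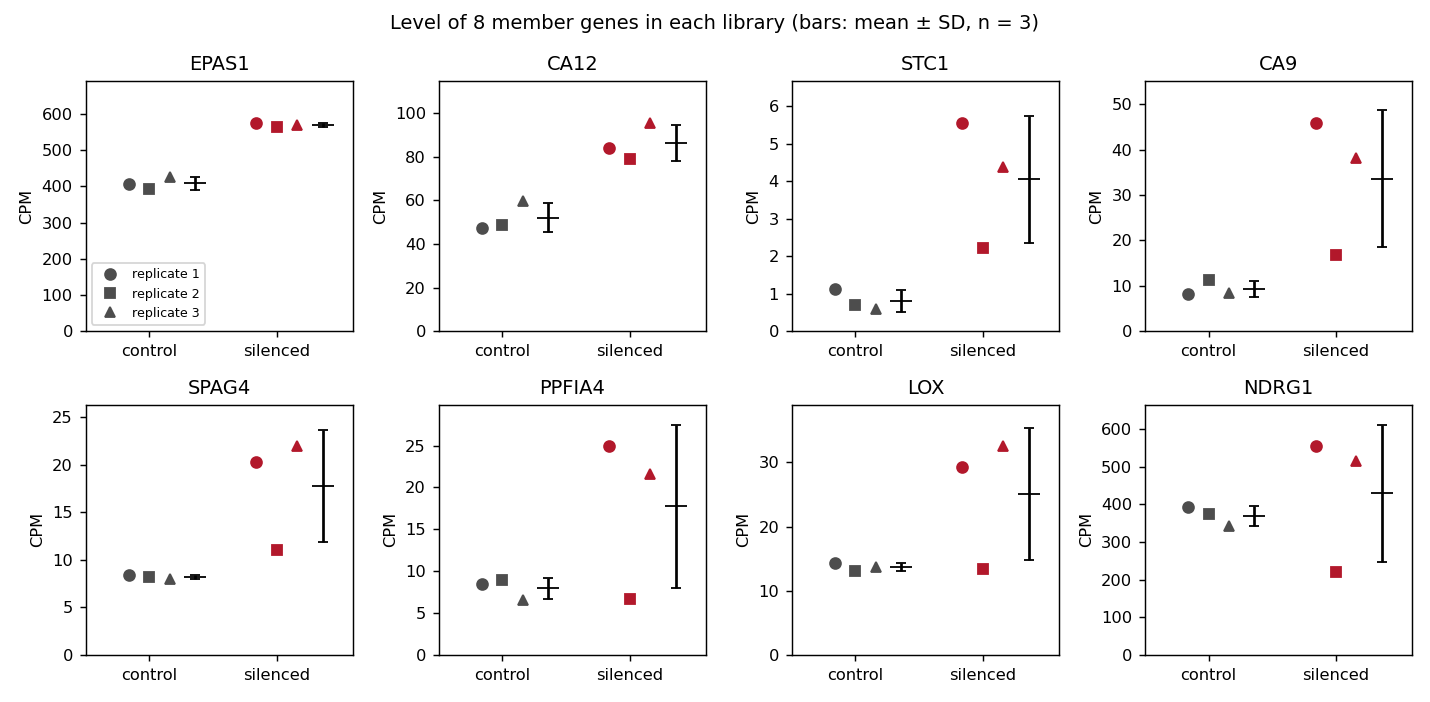
CPM (vertical axes, from 0) of 8 members in each control (grey) and silenced (red) library, with the marker shape giving the replicate number and the bars the mean ± SD (n = 3). In EPAS1 and CA12 the silenced replicates lie together, whereas in CA9, STC1, SPAG4, PPFIA4, LOX and NDRG1 replicate 2 (square) lies below replicates 1 and 3.

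Of the 6 enzymes that modify and crosslink collagen, 4 rose. P4HA2, a catalytic subunit of collagen prolyl hydroxylase, measured 56.9, 61.8 and 66.4 CPM in the control libraries and 91.7, 79.4 and 102 CPM in the silenced libraries, without overlap (log2 fold change 0.56, standard error 0.10, edgeR adjusted p = 0.00467). PLOD2, the lysyl hydroxylase of collagen telopeptides, measured 31.6, 37.9 and 31.3 CPM in the control libraries and 52.6, 45.1 and 46.1 CPM in the silenced libraries, also without overlap (log2 fold change 0.51, standard error 0.10, edgeR adjusted p = 0.00706). Of the sister enzymes, which did not pass the test, P4HA1 ranged from 59.9 to 70.9 CPM in the control libraries and 55.7 to 73.1 CPM in the silenced libraries (log2 fold change -0.043, edgeR adjusted p = 0.818), and PLOD1 from 294 to 329.7 CPM in the control libraries and 341 to 364 CPM in the silenced libraries (log2 fold change 0.18, edgeR adjusted p = 0.105). Whether the sister enzymes differed in their change was not tested. LOXL2, a secreted lysyl oxidase, measured 327, 316 and 342 CPM in the control libraries and 497, 393 and 534 CPM in the silenced libraries (log2 fold change 0.53, standard error 0.10, edgeR adjusted p = 0.00630), and was among the most abundant members per kilobase of exon, at 57.5 CPM in the control. LOX, which starts the crosslinks of collagen and elastin, measured 14.3, 13.1 and 13.7 CPM in the control libraries and 29.3, 13.3 and 32.5 CPM in the silenced libraries. Its silenced replicates 1 and 3 were more than 2-fold above the control mean, and silenced replicate 2 was at the control level. LOX passed the test on average (log2 fold change 0.88, standard error 0.25, edgeR adjusted p = 0.0363), but it no longer passed on leaving out any of 5 libraries, with an adjusted p of 0.0770 without control replicate 1, 0.104 without control replicate 2, 0.0729 without control replicate 3, 0.125 without silenced replicate 1 and 0.123 without silenced replicate 3 by edgeR, and with DESeq2 the adjusted p was 0.111. It passed the test without silenced replicate 2 (log2 fold change 1.18, standard error 0.11, edgeR adjusted p = 0.000129).

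Of the mitochondrial members, BNIP3L, a mitophagy receptor, measured 64.8, 78.8 and 70.0 CPM in the control libraries and 116, 96.1 and 118 CPM in the silenced libraries, with no overlap (log2 fold change 0.63, standard error 0.10, edgeR adjusted p = 0.00258). BNIP3, the related receptor, ranged from 40.5 to 51.7 CPM in the control libraries and 46.6 to 75.8 CPM in the silenced libraries and did not pass the test (log2 fold change 0.49, edgeR adjusted p = 0.0590), and silenced replicate 2 lay within the control range. FAM162A, a mitochondrial HIF target, had overlapping groups and a log2 fold change of 0.017.

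Among the metabolic members, PDK1, the kinase that holds back pyruvate dehydrogenase and thus mitochondrial use of pyruvate, measured 16.4, 13.4 and 14.8 CPM in the control libraries and 23.6, 23.3 and 26.7 CPM in the silenced libraries. Its silenced libraries were even, and it rose 1.65-fold (log2 fold change 0.73, standard error 0.11, edgeR adjusted p = 0.00211). SLC2A1, the main glucose transporter of many tumors, measured 261, 232 and 249.9 CPM in the control libraries and 364, 289 and 363 CPM in the silenced libraries, without overlap (log2 fold change 0.45, standard error 0.095, edgeR adjusted p = 0.00950), and its adjusted p was 0.0517 without silenced replicate 1 by edgeR. PFKFB3 and PFKFB4 are bifunctional enzymes that set the allosteric activator of phosphofructokinase, and their values lay in opposite directions. PFKFB3 ranged from 60.0 to 80.7 CPM in the control libraries and 53.1 to 56.8 CPM in the silenced libraries, without overlap (log2 fold change -0.33, edgeR adjusted p = 0.0509), and PFKFB4 from 19.5 to 22.5 CPM in the control libraries and 21.2 to 39.2 CPM in the silenced libraries (log2 fold change 0.58, edgeR adjusted p = 0.0526). Neither passed the test, and both were just above the threshold. AK4, a mitochondrial adenylate kinase (log2 fold change 0.61, edgeR adjusted p = 0.0879), GBE1, the glycogen branching enzyme (log2 fold change 0.26, edgeR adjusted p = 0.0734), and HILPDA, a lipid droplet protein (log2 fold change -0.024, edgeR adjusted p = 0.945), did not pass it either.

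In the group of transcription factors and cofactors, BHLHE40, a repressor linked to the circadian clock, measured 90.2, 87.5 and 101 CPM in the control libraries and 146, 107 and 151 CPM in the silenced libraries (log2 fold change 0.54, standard error 0.12, edgeR adjusted p = 0.0130), with an adjusted p of 0.0524 without control replicate 2 and 0.0629 without silenced replicate 1 by edgeR. CITED2, which competes with HIF for its coactivators, measured 49.8, 48.1 and 46.1 CPM in the control libraries and 62.9, 56.1 and 67.9 CPM in the silenced libraries (log2 fold change 0.38, standard error 0.086, edgeR adjusted p = 0.0136), with an adjusted p of 0.0554 without silenced replicate 1 and 0.0533 without silenced replicate 3. In both, every silenced library was above every control library. RORA, a nuclear receptor, was near the limit of detection, with 0.473 to 0.925 CPM in the control and 0.647 to 1.64 CPM in the silenced libraries (log2 fold change 1.01, edgeR adjusted p = 0.137), and MAFF, a small MAF protein, ranged from 12.6 to 16.4 CPM in the control libraries and 12.6 to 20.7 CPM in the silenced libraries (log2 fold change 0.28, edgeR adjusted p = 0.298).

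The remaining 8 targets have varied roles, and 6 of them rose. ERRFI1, a feedback inhibitor of the EGF receptor, measured 31.5, 36.3 and 34.9 CPM in the control libraries and 79.1, 43.6 and 76.3 CPM in the silenced libraries, without overlap and just short of a 2-fold rise (log2 fold change 0.95, standard error 0.18, edgeR adjusted p = 0.00613). SPAG4, a SUN-domain protein of the nuclear envelope, measured 8.43, 8.21 and 7.98 CPM in the control libraries and 20.3, 11.004 and 21.9 CPM in the silenced libraries and rose 2.17-fold (log2 fold change 1.12, standard error 0.22, edgeR adjusted p = 0.00692). Silenced replicate 2 was again the lowest of the silenced libraries in both genes. Without it, both passed the test, ERRFI1 with a log2 fold change of 1.18, standard error 0.087, edgeR adjusted p = 4.54e-05, and SPAG4 with one of 1.37, standard error 0.12, edgeR adjusted p = 0.000141. WSB1, a substrate receptor of a ubiquitin ligase, measured 48.4, 55.2 and 59.9 CPM in the control libraries and 77.2, 72.7 and 75.0 CPM in the silenced libraries, with close replicates (log2 fold change 0.46, standard error 0.088, edgeR adjusted p = 0.00639). RIOK3, an atypical kinase, measured 36.8, 42.9 and 40.03 CPM in the control libraries and 57.3, 63.8 and 53.2 CPM in the silenced libraries, and silenced replicate 2 was the highest (log2 fold change 0.54, standard error 0.093, edgeR adjusted p = 0.00372). TMEM45A, a transmembrane protein, measured 22.001, 23.5 and 27.0 CPM in the control libraries and 34.8, 29.4 and 35.1 CPM in the silenced libraries (log2 fold change 0.45, standard error 0.11, edgeR adjusted p = 0.0185). It passed the test with all libraries but had an adjusted p of 0.0563 without control replicate 1, 0.0649 without control replicate 2, 0.0782 without silenced replicate 1 and 0.0592 without silenced replicate 3 by edgeR.

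Among these 8 targets, PPFIA4, a liprin, and NDRG1, a stress-responsive gene often used as a hypoxia marker, had the largest spread among the silenced libraries. PPFIA4 measured 8.43, 8.90 and 6.50 CPM in the control libraries and 24.9, 6.66 and 21.6 CPM in the silenced libraries. Silenced replicates 1 and 3 were 3.13-fold and 2.72-fold above the control mean and silenced replicate 2 lay within the control range, and the average rise passed the test narrowly (log2 fold change 1.18, standard error 0.36, edgeR adjusted p = 0.0471). Without silenced replicate 2 the rise was larger (log2 fold change 1.56, standard error 0.15, edgeR adjusted p = 0.000251), but PPFIA4 no longer passed on leaving out any of the other libraries, with an adjusted p of 0.0939 without control replicate 1, 0.0950 without control replicate 2, 0.118 without control replicate 3, 0.179 without silenced replicate 1 and 0.129 without silenced replicate 3 by edgeR. With DESeq2 the adjusted p of PPFIA4 was 0.155, and with counts thinned to the smallest library it was 0.0643 by edgeR. NDRG1 measured 392, 375 and 341 CPM in the control libraries and 554, 219.7 and 514 CPM in the silenced libraries. It was higher than any control library in silenced replicates 1 and 3 and lower than any in silenced replicate 2, and the average difference did not pass the test (log2 fold change 0.22, standard error 0.25, edgeR adjusted p = 0.590). Without silenced replicate 2 it did (log2 fold change 0.53, standard error 0.082, edgeR adjusted p = 0.00278). ANKRD37, an ankyrin-repeat HIF target, ranged from 2.26 to 3.11 CPM in the control libraries and 2.68 to 5.57 CPM in the silenced libraries and did not pass the test (log2 fold change 0.64, edgeR adjusted p = 0.142).

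The spread of the silenced libraries was compared over all members. The median SD of log2 CPM was 0.12 in the control and 0.19 in the silenced libraries for the members, and 0.13 in both groups for all tested genes. The 5 members with the largest SD among the silenced libraries were PPFIA4 (1.03), CA9 (0.77), NDRG1 (0.74), LOX (0.70) and STC1 (0.66). Silenced replicate 2 was the lowest in all of these 5. Its difference from the mean of the other silenced libraries, in log2 of CPM plus 0.5, had a median of -0.30 over the members and 0.00071 over all tested genes. In 17 members (38.6%) the difference was below -0.5, against 5.70% of all tested genes, and in 0 members it was above 0.5, against 2.39%. Silenced replicate 2 was thus also more often low over all tested genes. The same share below -0.5 was 2.26% for silenced replicate 1 and 2.2% for silenced replicate 3, with 0 members in either. Silenced replicates 1 and 3 lay close together, with a median difference of -0.0056 and a range of -0.27 to 0.31 over the members.

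**Figure D4:**
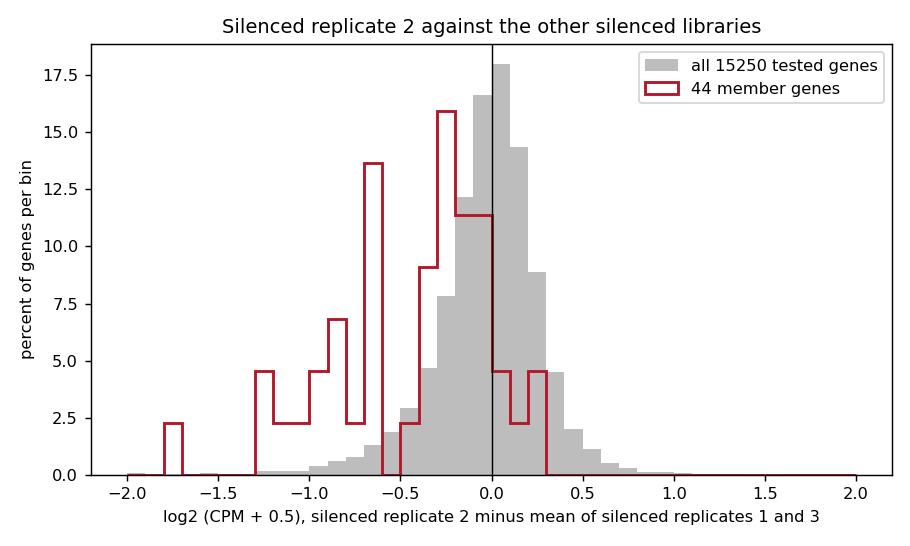
Distribution of the difference between silenced replicate 2 and the mean of silenced replicates 1 and 3 (horizontal axis, log2 of CPM plus 0.5; vertical axis, percent of genes per bin; values past either end are counted in the end bins) for all 15250 tested genes (grey) and the 44 tested members (red line). The members are shifted to the left, with a median of -0.30 and values down to -1.73, while all genes center on 0.00071.

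The difference was largest for PPFIA4 (-1.73), CA9 (-1.30), NDRG1 (-1.28), LOX (-1.18), STC1 (-1.001) and EGLN3 (-0.98). In the 11 members that exceeded the controls only in silenced replicates 1 and 3 (EGLN3, ANGPTL4, LOX, BNIP3, PFKFB4, AK4, RORA, MAFF, NDRG1, ANKRD37 and PPFIA4), the median fold over the control mean was 1.83 and 1.64 in these libraries and 0.973 in silenced replicate 2. In the 25 members above the controls in each silenced library, the medians were 1.47, 1.29 and 1.45. Members in which silenced replicate 2 was the highest were HIF1A, VHL, ARNT, HIF1AN and RIOK3, with differences as small as 0.069 for ARNT and 0.056 for HIF1AN. The other subunits and sensors, EPAS1, EGLN1 and EGLN3, had their lowest silenced value in that library. FAM83H-AS1 itself had 47, 48 and 75 counts in the silenced libraries, and the total of silenced replicate 2, 10588505 counts, lay between those of the others. Whether the level of FAM83H-AS1 or the depth bears on the low values in that library was not tested.

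Without silenced replicate 2, 27 members rose in place of 22 and 0 fell, while 1867 of the 15622 genes then tested passed in either direction. With a fold change over 2 as well, 6 in place of 4 were called (LOX and ERRFI1 were added), and the median log2 fold change was 0.54. ANGPTL4, BNIP3, PFKFB4, AK4, NDRG1 and ANKRD37 then passed the test and VHL no longer did. Silenced replicate 2 was the lowest silenced library in each gene gained and the highest in VHL. Without silenced replicate 1, 14 members rose, and all 14 were among the 22. Fewer genes passed in that fit as a whole, 1225 of 15571 in either direction, against 2595 of 15250 with all libraries. In all, 13 members rose under every alternative in which they were tested: EPAS1, CA9, CA12, STC1, P4HA2, PLOD2, LOXL2, BNIP3L, PDK1, ERRFI1, WSB1, SPAG4 and RIOK3. STC1 was not tested where 10 counts were required in each library.

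Members that rose were found at low and at high levels. Of the 5 members with a mean under 10 CPM over all libraries, 1 rose (20.0%, against 4.90% of all tested genes at that level), of the 31 members from 10 to under 100 CPM 17 rose (54.8% against 10.4%), and of the 8 members at 100 CPM or more 4 rose (50% against 12.01%). The median log2 fold changes of these classes were 0.64, 0.45 and 0.46. The 4 members called at a fold change over 2 had mean levels of 0.804 to 9.23 CPM in the control, at the lower end of the members.

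A further 3 lists of the same pathway, which hold none of the members, were counted in the same fit. Of 18 glycolytic HIF targets, all tested, 3 rose (16.7%) and 0 fell, with a median log2 fold change of 0.022, and 5 were higher and 2 lower at an unadjusted p under 0.05 by edgeR. The 3 were HK2 (log2 fold change 0.64, edgeR adjusted p = 0.00994) and HK1 (log2 fold change 0.33, edgeR adjusted p = 0.0277), hexokinases, and ENO2 (log2 fold change 0.57, edgeR adjusted p = 0.00236), an enolase. ALDOC (log2 fold change 0.24, edgeR adjusted p = 0.0748), PFKM (log2 fold change 0.17, edgeR adjusted p = 0.105) and SLC16A3, the lactate exporter (log2 fold change -0.24, edgeR adjusted p = 0.145), had the next smallest adjusted p and did not pass the test. The share of glycolytic targets that rose was thus 16.7% beside 50% of the members and 8.75% of all tested genes, and the difference between the lists was not tested. Silenced replicate 2 was the lowest silenced library in most of them (83.3%), as in the members, though never by more than 0.5 on the log2 scale.

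Of 18 tested genes of the VHL ligase, hydroxylases and HIF cofactors, 1 rose and 2 fell, and the median was -0.036. ARNT2, a paralog of ARNT, measured 0.720, 1.38 and 1.42 CPM in the control libraries and 4.003, 3.14 and 3.94 CPM in the silenced libraries and rose from a low level (log2 fold change 1.61, edgeR adjusted p = 0.00477). TCEB2, an elongin subunit of the VHL ligase (log2 fold change -0.30, edgeR adjusted p = 0.0300), and CITED4, a relative of CITED2 (log2 fold change -0.41, edgeR adjusted p = 0.0423), fell. HIF3A was not tested, with 2 to 14 counts in a library.

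Of 45 tested other HIF targets, 14 rose (31.1%) and 2 fell, and the median was 0.10. The smallest adjusted p values belonged to ENG, IGFBP1, HMOX1, KLF6 and CDKN1A. ENG, the endothelial coreceptor endoglin, fell (log2 fold change -1.32, edgeR adjusted p = 2.38e-05), from 188 ± 22.3 to 75.3 ± 4.54 CPM (SD, n = 3). IGFBP1, a binding protein of insulin-like growth factors, measured 15.9, 19.9 and 21.0 CPM in the control libraries and 72.8, 47.6 and 76.6 CPM in the silenced libraries (log2 fold change 1.78, edgeR adjusted p = 0.000135). HMOX1, heme oxygenase (log2 fold change 0.92, edgeR adjusted p = 0.000172), KLF6, a zinc finger factor (log2 fold change 0.67, edgeR adjusted p = 0.00118), and CDKN1A, the inhibitor of cyclin-dependent kinases (log2 fold change 0.68, edgeR adjusted p = 0.00180), rose, and each of these is also known to respond to stimuli other than hypoxia. In silenced replicate 2, 8 of these 45 genes (17.8%) were more than 0.5 below the mean of the other silenced libraries on the log2 scale. The same held for 0 of the glycolytic targets, 0 of the ligase and cofactor genes and 5.70% of all tested genes.

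**Figure D5:**
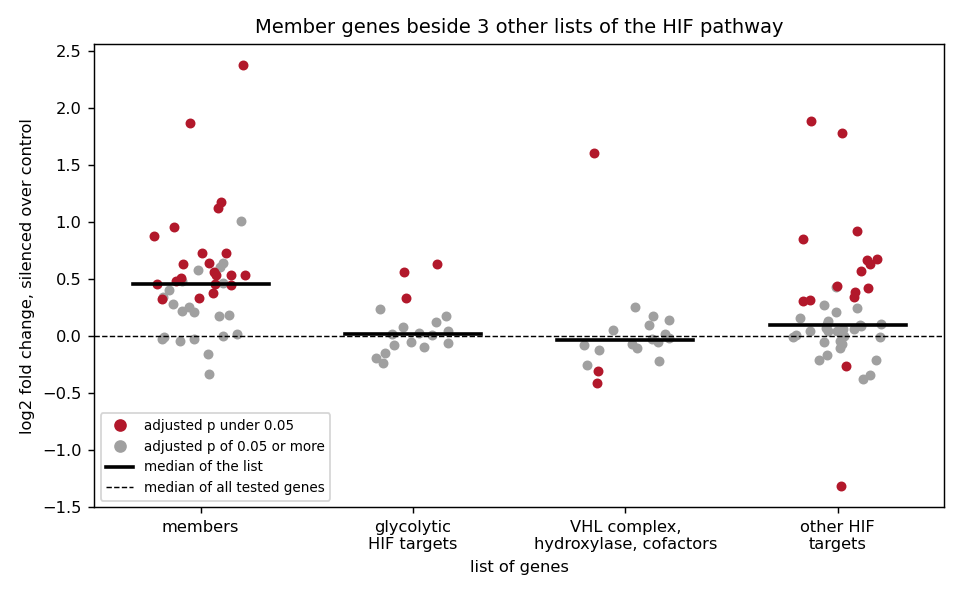
Log2 fold change, silenced over control (vertical axis), of the tested members and of the tested genes of 3 other lists (18, 18 and 45 genes); each point is a gene, red where its adjusted p was under 0.05, and the black bars are the medians of the lists. The median of the members (0.46) lies above those of the glycolytic targets (0.022), the ligase and cofactor genes (-0.036) and the other HIF targets (0.10); the dashed line is the median of all tested genes.

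Some counts may hold reads of other genes. In GENCODE 29, 18 of the 45 members share exon bases with a gene on the opposite strand, among them 10 of the 22 that rose, such as CA9 with ARHGEF39 and HIF1A with HIF1A-AS1, and whether strand was used in counting is not given in the sources used here. A further overlap, with a gene on the same strand, is present for 7 members, among them HIF1A, LOXL2 and SLC2A1, which rose. The strand of a read cannot separate these. Named pseudogenes exist for 6 members, HIF1A, EGLN1, EGLN3, BNIP3, AK4 and RIOK3, whose reads could be split or shared.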

How the data were processed

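Gene expression was measured by RNA-Seq of total RNA on an Ion Proton platform in 3 control and 3 silenced libraries. Per the study's methods, the authors mapped reads and counted them per gene with MapSplice and compared groups with DESeq. The processing notes name GRCh37. The annotation and the treatment of strand and of multiply mapped reads are not given in the sources used here. The deposited table holds raw counts of 40173 genes, 14309 of them at 0 in every library. Every column of per-sample values matched a sample label.

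The counts were tested in edgeR 4.0.16 (R 4.3.3) with filterByExpr (15250 genes kept), TMM normalization, the quasi-likelihood F test and Benjamini-Hochberg adjustment over all tested genes. The standard error of a log2 fold change was taken as its size over the square root of F. A gene passed at an adjusted p under 0.05 and was called at a fold change over 2 as well, the thresholds in the study's methods. CPM values were computed from the deposited counts. With 3 libraries against 3, an exact permutation test cannot go below p = 0.1. Counts of 15250 genes were simulated at these library sizes with the common dispersion (0.0108) for every gene and no outlying library. From these, edgeR recovered 28 of 50 genes changed 1.5-fold, 46 of 50 changed 2-fold, 50 of 50 changed 3-fold and 49 of 50 changed 4-fold, with 9 false calls. Changes near 1.5-fold could thus be missed. The simulation does not cover the libraries that stood apart or the larger spread of some members.

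The members and lists were chosen with earlier results of these data known, and no p-value was computed over a list. Named with values by library were the members past the adjusted p, the HIF subunits, EGLN1, EGLN3, HIF1AN and VHL, and the 5 members most variable among the silenced libraries, with at most 6 genes of each further list, those of smallest adjusted p, of which 1 is not reported here. Exon lengths and overlaps were taken from GENCODE 29 on GRCh38 by symbol, and promoters from RefSeq on GRCh38.p14. Alternatives were leaving out each library, DESeq2 1.42.0 for the test, RLE factors or plain library size for scaling, a minimum of 1 count in any library or of 10 in every library, thinning to the depth of the smallest library, a replicate block, and a threshold of 0.01. Replicate numbers, taken from the deposited table, were not used as pairs: deviations from the group means of libraries with the same number correlated at 0.124, 0.149 and 0.067.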

Additional observations from a re-analysis of the deposited data

How the results depend on the processing

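The rises of EPAS1, CA9, CA12, STC1, P4HA2, PLOD2, LOXL2, BNIP3L, PDK1, ERRFI1, WSB1, SPAG4 and RIOK3 passed the test under every alternative in which they were tested, and the median log2 fold change of the members stayed between 0.40 and 0.54. The number of members that rose was 22 to 27 with other scalings, filters or DESeq2, 14 at an adjusted p under 0.01, and 14 to 27 when each library was left out in turn. One member, PFKFB3, fell with all genes of at least 1 count, with at least 10 counts in every library, with DESeq2, with the replicate block and in 1 of the 6 fits without a library (0 to 1). Members called at a fold change over 2 numbered 2 to 6 without a library. Over all genes, 326 were called, and 199 to 583 under the alternatives. Libraries with the same number deviated together only weakly, though each correlated best with its own number, which is a hint from the data and not from the design. The replicate block moved the calls over all genes from 326 to 380 and the members that rose from 22 to 27.

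In the further lists, glycolytic targets that fell numbered 0, or 1 with all genes of at least 1 count. Ligase and cofactor genes that rose numbered 1, or 2 with at least 1 count, with DESeq2 and with the replicate block, and 0 with at least 10 counts in every library, where ARNT2 was not tested; those that fell numbered 2, or 3 with at least 1 count and with DESeq2, 1 with library size only, 4 with the replicate block, 0 at an adjusted p under 0.01 and 0 to 2 without a library. Of the other HIF targets, 9 in place of 14 rose at an adjusted p under 0.01, and 1 in place of 2 fell there, with library size only, with DESeq2 and in 4 of the 6 fits without a library (1 to 2).

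Directions turned in 22 of 568 comparisons of a member's log2 fold change, all for members that did not pass the test with all libraries: KDM4B (-0.00020 with RLE size factors, -0.0042 with at least 1 count, -0.0019 with DESeq2, -0.0022 with thinned counts, -0.14 to 0.12 without a library), JMJD6 (0.025 with library size only, -0.073 to 0.061 without a library), VEGFA (0.010 with library size only, -0.10 to 0.059), P4HA1 (-0.15 to 0.052), FAM162A (-0.052 to 0.11), HILPDA (0.0087 with library size only, -0.23 to 0.16) and NDRG1 (-0.0079 to 0.53). NDRG1, at 0.22 with all libraries, turned only without silenced replicate 1 and passed the test without silenced replicate 2. The share of member promoters with a core word was 58.3% with ACGTG alone. The cause of these changes was not tested. STC1, with 8 to 11 control counts, RORA and BHLHE41 are limited by depth.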

Other observations

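Outside the hypoxia genes described above, the low level of silenced replicate 2 was also present in 8 of the 45 tested other HIF targets (17.8%), against 5.70% of all tested genes. These 8 were chosen here after their values were seen. The difference of silenced replicate 2 from the mean of the other silenced libraries was -1.70 on the log2 scale for IGFBP3, a binding protein of insulin-like growth factors, -1.05 for CXCR4, a chemokine receptor, -0.69 for TWIST1, -0.64 for IGFBP1, -0.57 for NT5E, -0.54 for FUT11, -0.54 for SAP30 and -0.51 for C4orf3. TWIST1 was at a low level, with 14, 8 and 22 counts in the silenced libraries. IGFBP3 nonetheless rose on average by 1.88 on the log2 scale (standard error 0.36, edgeR adjusted p = 0.00609), whereas CXCR4 had a log2 fold change of 0.049 (edgeR adjusted p = 0.917).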
